A study of Mus musculus with 30 samples.

Results

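Epithelial cells exposed to an exacerbation cocktail (EC) were compared directly with epithelial cells exposed to TGF-β in 7 of the 30 libraries analysed here, 4 of EC and 3 of TGF-β, taken by their labels for cell fraction and treatment. Each culture held 300000 primary Epcam+ lung cells of wild-type C57BL/6J mice, depleted of CD45+ and CD31+ cells, mixed with the same number of mitomycin C-treated, non-dividing CCL206 cells, a single line of mouse lung fibroblasts. Cultures stood for 72 hours in Matrigel, with the kinase inhibitor Y-27632 in the organoid medium according to the methods for vehicle and EC, and received either EC (TNF-α, IL-1β, IL-6 and KC, for which the labels name IL-8) or TGF-β at 2 ng/ml. The cells were then pulled apart with Epcam microbeads, and the Epcam+ cells (epithelial libraries) and CCL206 cells (fibroblast libraries) were sequenced in bulk. EC libraries came from mice 1, 2, 3 and 4 and TGF-β libraries from mice 2, 3 and 4, so 3 mice were paired. A TGF-β library of epithelial cells of mouse 1 was not analysed here. The 4 vehicle libraries of the same mice served as the background. Another 4 libraries, of a further treatment (IPFc, a mix of factors found raised in idiopathic pulmonary fibrosis), entered the fit but were not compared. They added to its estimates of the spread and of the mouse effects, to the filter and to the scaling. The 7 libraries held between 8275413 and 18826266 counted reads, the lowest and the highest both being TGF-β libraries. All levels are CPM (reads of a gene scaled to a common library total) after TMM scaling, except that marker checks (Ptprc, Cdh5, Wt1 and sums over reference lists) and Xist and Y-linked levels are without it, and fold changes are log2 values of EC minus TGF-β from edgeR, so that a positive value is higher in EC. The value after ± of a fold change is its standard error, and levels are listed in the order of the mouse numbers.

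TNF-α and IL-1β act through receptors that release the transcription factor NF-κB, and IL-6 acts through gp130 and STAT3. In airway epithelium these routes are known for chemokines that draw neutrophils, for secreted antimicrobial proteins and for acute-phase proteins. TGF-β acts through a pair of receptor kinases that phosphorylate SMAD2 and SMAD3, which join SMAD4 and bind DNA together with partners such as AP-1. It is known for arrest of epithelial growth, for matrix, integrin and contractile genes, and for loss of epithelial identity at high or long exposure. Both treatments reach the fibroblasts of the co-culture as well as the epithelium.

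Promoter stretches of genes from both sides of the comparison are shown, because NF-κB and SMAD factors are the textbook end points of the treatments. They are upstream sequences of RefSeq start sites on GRCm38.p6, printed 5′ to 3′ on the strand of the gene, with the matched letters in capitals. Cxcl3 and Cxcl1 encode neutrophil-attracting chemokines, Ccl20 the ligand of CCR6 and Pglyrp1 a peptidoglycan-binding antimicrobial protein, and all 4 were higher in EC. Their capitals mark GGG and TTCC with any 3 bases between them, an NF-κB-like motif searched on both strands. In Cxcl3 and in Cxcl1, 2 of the 3 matches are the same site read on either strand.
Cxcl3 (chr5:90785998-90786090, plus strand): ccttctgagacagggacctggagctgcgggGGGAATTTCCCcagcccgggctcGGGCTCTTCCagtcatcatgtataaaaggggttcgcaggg
Cxcl1 (chr5:90891126-90891214, plus strand): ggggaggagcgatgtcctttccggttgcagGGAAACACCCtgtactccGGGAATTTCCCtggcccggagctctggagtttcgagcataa
Ccl20 (chr1:83116656-83116725, plus strand): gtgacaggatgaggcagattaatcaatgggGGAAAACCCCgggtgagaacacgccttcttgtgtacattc
Pglyrp1 (chr7:18884567-18884636, plus strand): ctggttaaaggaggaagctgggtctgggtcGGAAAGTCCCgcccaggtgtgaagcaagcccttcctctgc
Lamb3 encodes a chain of the basement membrane protein laminin-332 and Col7a1 the anchoring fibril collagen. Both were higher in TGF-β and their capitals mark CAGACA, read here on the opposite strand, a SMAD-binding motif. St6gal1, a sialyltransferase, was also higher in TGF-β and its capitals mark TGANTCA, the AP-1 motif.
Lamb3 (chr1:193301820-193301885, plus strand): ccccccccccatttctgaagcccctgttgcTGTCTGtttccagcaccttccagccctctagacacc
Col7a1 (chr9:108953374-108953439, plus strand): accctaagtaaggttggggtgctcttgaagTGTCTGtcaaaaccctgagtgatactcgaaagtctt
St6gal1 (chr16:23290425-23290469, plus strand): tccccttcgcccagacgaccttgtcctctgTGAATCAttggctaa
A match is a description of letters, not a site of binding. Promoters without a match were not shown, so the match in each one is by choice. Matches among the named genes also lay on the other side. The NF-κB-like motif was found for Csf1, Tnfaip3 and Ifit2, which were higher in TGF-β in the direct comparison. CAGACA was found for Krt7, Tjp3 and Elf5, among others, which were higher in EC. Of all promoters of tested genes, taken from 250 bases before to 50 bases after the start, 6.21% held the NF-κB-like motif, 16.8% CAGACA, 5.81% the AP-1 motif and 6.87% the STAT motif TTCNNNGAA. Among genes higher in EC by a log2 fold change over 1 the shares were 7.45%, 17.9%, 7.68% and 8.03%, and among those higher in TGF-β 5.80%, 20.8%, 7.69% and 6.80%. A promoter was found for 12180 of 18017 gene symbols.

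The epithelial identity of the libraries was checked first. Epcam, the surface protein used for sorting, was at 237, 232, 266 and 326 CPM in EC libraries and at 359, 387 and 388 CPM in TGF-β libraries, so the TGF-β libraries all lay above the EC libraries. The defining markers of leukocytes (Ptprc) and endothelium (Cdh5) were at most 0.218 and 0.162 CPM in the 7 libraries, and Wt1 of mesothelium at most 0.162 CPM. Msln, which mesothelial and some epithelial cells express, was high in all of them. Summed over 39 epithelial genes the level was 23409 to 27520 CPM in EC and 13191 to 16595 CPM in TGF-β. Summed over 40 fibroblast genes it was 955 to 2146 CPM in EC and 9324 to 9831 CPM in TGF-β. Sums over 25 immune genes were 386 to 489 CPM in EC and 131 to 169 CPM in TGF-β, those over 18 endothelial genes 18.8 to 30.6 and 14.3 to 17.1 CPM, and those over 12 mesothelial genes 3231 to 5070 and 1887 to 2229 CPM. The mesothelial list holds Msln and the abundant keratin Krt19, which is also on the epithelial list, so its sum is no measure of mesothelium alone.

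The fibroblast RNA in each epithelial library was estimated as the median ratio of fibroblast reference genes between that library and the fibroblast library of the same culture. The vehicle library of mouse 2 had no such partner here and was set against the mean of the other vehicle fibroblast libraries. The estimate was 17.4%, 13.0%, 5.25% and 11.3% of the reads in EC libraries of mice 1 to 4 and 27.5%, 26.4% and 32.1% in TGF-β libraries of mice 2 to 4. The TGF-β libraries thus held more fibroblast RNA than any EC library, with means of 28.6 ± 3.02% (SD, n = 3) and 11.7 ± 5.05% (SD, n = 4). The difference of 16.9 percentage points had p = 0.0571 in an exact two-sided permutation test, the smallest p that 35 arrangements of 4 against 3 libraries allow. Within mice 2, 3 and 4 the difference was 14.5, 21.1 and 20.8 points. Vehicle libraries held 4.31 to 9.61%. In bulk libraries fewer epithelial cells and less RNA per epithelial cell cannot be told apart. Fibroblast libraries of the EC cultures in turn held 36.4 to 62.5% epithelial RNA and those of the TGF-β cultures 0.993 to 3.70%. Solving both shares together, an alternative chosen after seeing the data, put the fibroblast RNA at 3.40 to 11.7% in EC and 26.2 to 31.2% in TGF-β. Every gene below was therefore tested a second time against the expected mixture, that is against the level the library would have if its epithelial part had stayed at the vehicle level and its fibroblast part equalled the fibroblast library of the culture. A fold change from that fit is called a change beyond the mixture. Because the EC partner libraries held epithelial RNA, the fibroblast reads estimated for a gene in EC libraries can include epithelial reads. For the surfactant gene Sftpc that estimate was 7.08 to 31.9% in EC libraries.

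**Figure D1:**
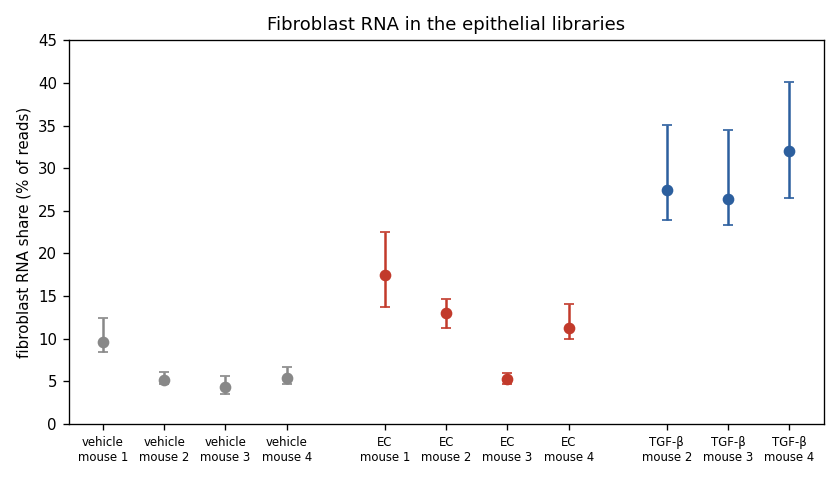
Estimated share of fibroblast RNA in each epithelial library (% of reads, vertical axis) for vehicle, EC and TGF-β cultures by mouse; points are the median ratio over fibroblast reference genes and bars run from the 25th to the 75th percentile of the ratios. The 3 TGF-β libraries lie between 26.4 and 32.1%, all above the 4 EC libraries at 5.25 to 17.4%. For the vehicle library of mouse 2 the mean of the other vehicle fibroblast libraries stood in for the missing partner.

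Of 18024 genes tested, 7764 (43.1%) were DEGs between EC and TGF-β at an adjusted p under 0.05. Higher in EC were 3766 genes (20.9%) and lower in EC, that is higher in TGF-β, were 3998 genes (22.2%). Of the former 955 and of the latter 2093 differed by more than 1 on the log2 scale. Without scaling factors 2882 genes were higher and 5006 lower in EC. Beyond the mixture 4727 genes (26.2%) were called, 2835 (15.7%) higher and 1892 (10.5%) lower in EC. Of these, 4304 had been called in the same direction without the mixture and 32 in the opposite one. The median log2 fold change over all genes tested was -0.06 and, beyond the mixture, 0.0044. The list counts below are to be read beside the shares of all genes. These were 20.9% higher and 22.2% lower in EC directly, and 15.7% and 10.5% beyond the mixture. The 37 tested fibroblast reference genes had a median of -2.44, and beyond the mixture -0.03. Single members still differed there, with 2 called higher and 5 lower in EC. The fibroblast share was estimated from these same genes, so their small median beyond the mixture is built into the method and is no result. Ranked by the adjusted p of the direct comparison, the leading 12 genes higher in EC included Pigr, Cxcl3, Pglyrp1, Cxcl5, Reg3g and Lcn2, and all 12 were also called beyond the mixture. The leading 12 higher in TGF-β included Ctse, Nrk, Acta2, Tagln, Inhba, Igfbp7 and Adam12, which were also called beyond the mixture, and Cdh11, Ank, Ccn4 and Dmp1, which were not.

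**Figure D2:**
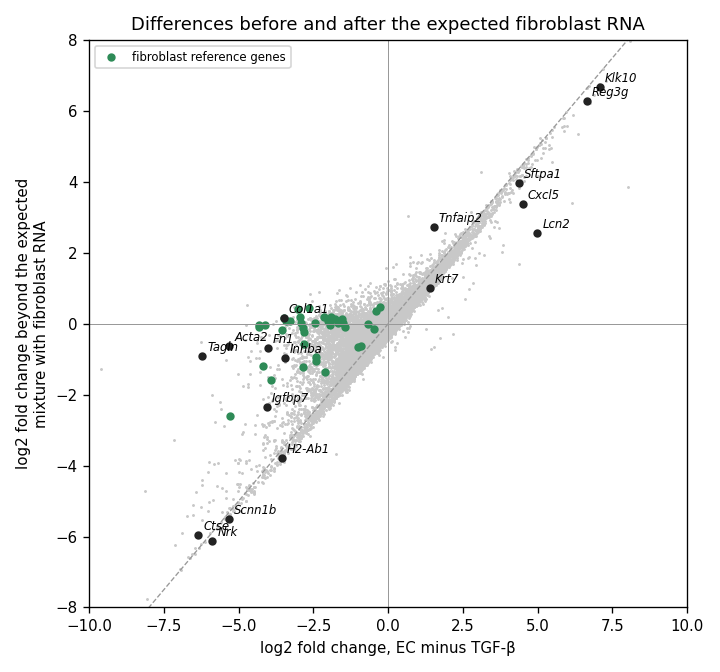
Log2 fold change of every tested gene, EC minus TGF-β (horizontal axis), against its log2 fold change beyond the expected mixture with fibroblast RNA (vertical axis), with fibroblast reference genes in green and named genes in black; the dashed line marks equal values. Ctse, Nrk, Scnn1b and H2-Ab1 lie near that line, while Col1a1 moves from -3.50 to 0.17. Col1a1 is one of the reference genes from which the fibroblast share was estimated.

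**Figure D3:**
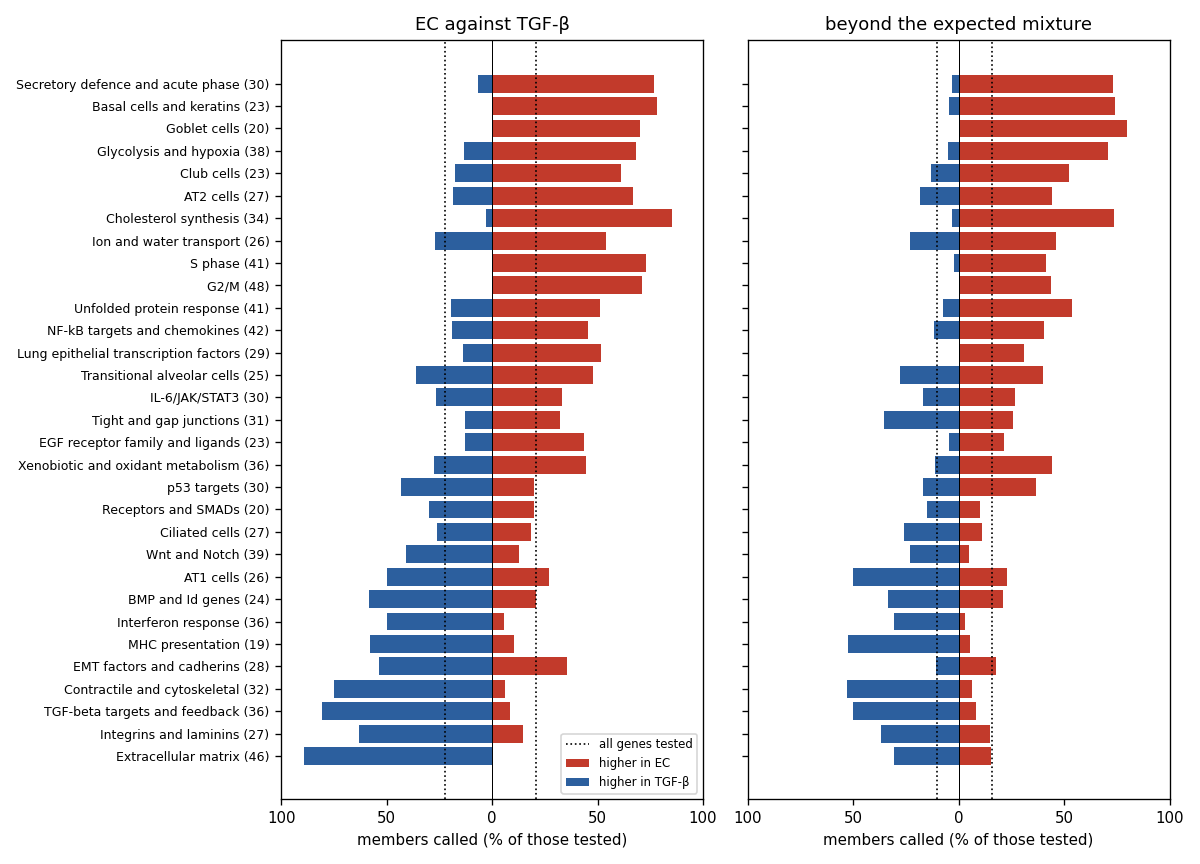
Members of each gene list called higher in EC (red, to the right) or higher in TGF-β (blue, to the left) as a percentage of the tested members (number in brackets), directly (left panel) and beyond the expected mixture (right panel); dotted lines give the percentage over all genes tested. For extracellular matrix genes 41 of 46 are higher in TGF-β on the left and 14 of 46 on the right.

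Secreted defence and acute-phase genes were the group with the largest median in favour of EC among the lists. Of 30 tested, 23 were higher and 2 (Itih4 and Tgm2) lower in EC, where 20.9% and 22.2% of all genes were, with a median log2 fold change of 2.47. Beyond the mixture 22 were higher and 1 lower (15.7% and 10.5% of all genes), with a median of 1.90. Pigr, the receptor that carries polymeric immunoglobulins across the epithelium, was at 384, 479, 181 and 136 CPM in EC and at 4.27, 2.52 and 0.690 CPM in TGF-β. No EC library came near the TGF-β libraries, and the vehicle libraries lay between them at 8.29 to 44.5 CPM. The log2 fold change was 6.77 ± 0.20 (adjusted p = 2.86e-15), and 6.21 beyond the mixture. Reg3g, a C-type lectin that kills Gram-positive bacteria, was at 246, 413, 119.9 and 84.9 CPM in EC and 4.57, 1.22 and 0.115 CPM in TGF-β. In both treatments mouse 4 had the lowest level, and the groups did not overlap (log2 fold change 6.64 ± 0.24, adjusted p = 6.17e-14). Lcn2, which withholds iron-loaded siderophores from bacteria, was at 231, 284, 188 and 206 CPM in EC and 10.6, 7.48 and 4.14 CPM in TGF-β. Here the TGF-β libraries lay at or below vehicle (7.94 to 11.3 CPM) and the EC libraries far above both. The log2 fold change was 4.99 ± 0.19 (adjusted p = 7.28e-14) and 2.56 beyond the mixture. Fibroblast reads were estimated at 7.41 to 26.2% of the Lcn2 reads in EC libraries and 2.03 to 2.99% in TGF-β libraries. The EC estimate can include epithelial reads of the partner libraries. With fibroblast libraries cleaned of epithelial RNA, an alternative chosen after seeing the data, Lcn2 had 2.90 beyond the mixture.

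Ltf, the iron-binding lactoferrin, was the highest of the named defence genes in EC libraries, at 2539, 2793, 1698 and 1848 CPM in EC and 209.8, 115 and 58.8 CPM in TGF-β (log2 fold change 4.12 ± 0.17, adjusted p = 3.52e-13). All EC libraries exceeded vehicle (462 to 989 CPM) and all TGF-β libraries fell short of it. Pglyrp1 was at 229, 237, 202 and 271 CPM in EC and within a narrow range, 11.3, 10.99 and 11.3 CPM, in TGF-β (log2 fold change 4.38 ± 0.13, adjusted p = 3.71e-15). Lyz1 and Bpifb1, a lysozyme and an airway lipid-binding secretory protein, differed by 5.44 ± 0.26 and 2.95 ± 0.17, with adjusted p = 2.09e-12 and 3.33e-11. The chitinase-like Chil1 was at 461, 529.7, 329 and 514 CPM in EC and 52.9, 35.1 and 20.5 CPM in TGF-β. Its EC libraries all lay above every TGF-β and vehicle library (log2 fold change 3.72 ± 0.22, adjusted p = 4.96e-11). Complement C3 differed by 1.80 ± 0.12 directly and by 0.45 beyond the mixture (adjusted p = 3.00e-10 and 0.00276), with 32.9 to 58.2% of its reads in EC libraries estimated as fibroblast reads. Cp, the copper-binding acute-phase protein ceruloplasmin, had 1.67 ± 0.10 and 1.14 (adjusted p = 7.40e-11 and 3.27e-07). Saa3, an acute-phase apolipoprotein, was at 11.5, 15.2, 6.02 and 25.2 CPM in EC and at 0.0993, 0 and 0 CPM in TGF-β. It was nearly absent from TGF-β libraries, and its estimated fibroblast reads were 34.2 to 374% of those in EC libraries. A value over 100 means that the fibroblast library would bring more reads than were counted. For Saa3 and C3 these EC estimates can include epithelial reads of the partner libraries.

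**Figure D4:**
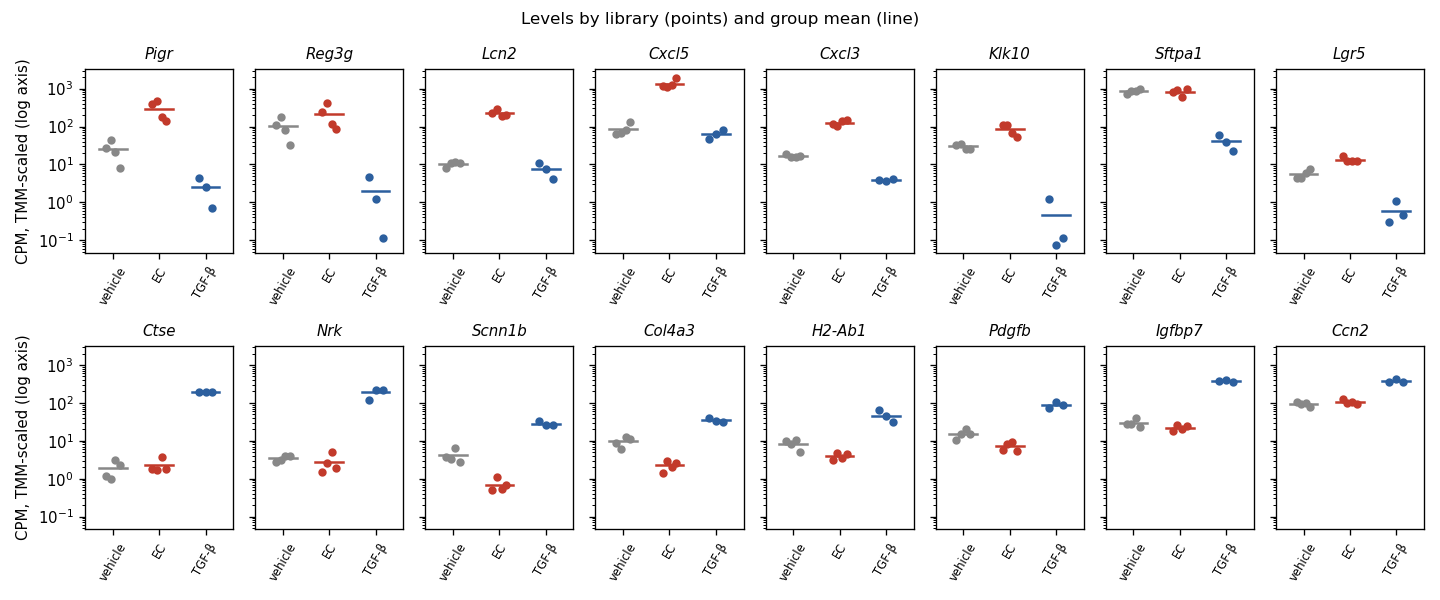
Levels of 16 genes in vehicle (grey), EC (red) and TGF-β (blue) epithelial libraries, in TMM-scaled CPM on a log axis; each point is a library and each line a group mean. In the upper row EC libraries lie above TGF-β libraries, as for Cxcl5 with at least 1084 CPM in EC and at most 78.8 CPM in TGF-β, and in the lower row the order is turned.

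Chemokines and other NF-κB targets did not move as one group. Of 42 tested, 19 were higher and 8 lower in EC, where 20.9% and 22.2% of all genes were, so the share lower was near that of all genes. The median log2 fold change was 0.30. Beyond the mixture 17 were higher and 5 lower (15.7% and 10.5% of all genes). Cxcl5, which draws neutrophils through CXCR2, was at 1142, 1084, 1213 and 1936 CPM in EC and at 47.9, 65.0 and 78.8 CPM in TGF-β. Mouse 4 had the highest level in both groups, and the TGF-β libraries lay within or near the vehicle range of 63.8 to 133 CPM. The log2 fold change was 4.50 ± 0.15 (adjusted p = 7.24e-15), and 3.39 beyond the mixture. Cxcl3 was at 119, 101, 137 and 149 CPM in EC and at 3.87, 3.59 and 4.14 CPM in TGF-β. Vehicle libraries stood between the groups at 15.4 to 18.3 CPM (log2 fold change 5.01 ± 0.15, adjusted p = 2.86e-15). Cxcl1, the gene of KC itself and so of 1 of the 4 proteins in the cocktail, was at 43.9, 59.6, 36.7 and 34.8 CPM in EC and 5.26, 9.92 and 11.8 CPM in TGF-β (log2 fold change 2.69 ± 0.40, adjusted p = 1.37e-05). An estimated 19.4 to 66.6% of the Cxcl1 reads in EC libraries were fibroblast reads, and beyond the mixture the fold change was 0.99 (adjusted p = 6.60e-04). That estimate can include epithelial reads of the EC partner libraries, and with cleaned fibroblast libraries the fold change was 1.04. Ccl20 was at 43.6, 49.7, 33.1 and 48.5 CPM in EC and 4.86, 9.62 and 12.2 CPM in TGF-β, with no overlap (log2 fold change 2.50 ± 0.24, adjusted p = 3.63e-08). Cxcl15 or lungkine, a chemokine made by alveolar epithelium, was at 1886, 2074, 1988 and 3182 CPM in EC and 267, 225 and 176 CPM in TGF-β. Its EC libraries overlapped with vehicle (1426 to 2119 CPM) and all TGF-β libraries lay below both (log2 fold change 3.40 ± 0.18, adjusted p = 8.34e-12). Csf3, the granulocyte growth factor G-CSF, was at 18.6, 21.0, 8.41 and 4.35 CPM in EC and 0.794, 1.22 and 0.575 CPM in TGF-β (log2 fold change 3.83 ± 0.47, adjusted p = 1.10e-06).

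Intracellular regulators of the pathway differed too. Zc3h12a, an RNase that degrades inflammatory mRNA, was at 61.1, 63.8, 60.8 and 38.4 CPM in EC and 15.04, 16.6 and 18.6 CPM in TGF-β (log2 fold change 1.77 ± 0.19, adjusted p = 1.53e-07). Tnfaip2, a TNF-induced gene, was at 283, 308, 186 and 118 CPM in EC and 71.3, 71.0 and 64.7 CPM in TGF-β. Its difference grew from 1.52 ± 0.18 to 2.73 beyond the mixture (adjusted p = 5.18e-07 and 6.20e-12), with 97.1 to 129% of the TGF-β reads estimated as fibroblast reads. The 8 members higher in TGF-β were Csf1, Tnfaip3, Nfkbie, Vcam1, Il23a, Traf1, Ptgs2 and Ripk2. Tnfaip3 encodes A20, a brake on NF-κB, and was at 52.3, 84.1, 67.2 and 47.0 CPM in EC and 102, 191 and 299 CPM in TGF-β. The TGF-β libraries all lay higher, although they spread over a range of their own (log2 fold change -1.24 ± 0.27, adjusted p = 7.03e-04; -1.40 beyond the mixture). Ptgs2, the inducible cyclooxygenase, was at 279.6, 338, 398 and 581 CPM in EC and 555, 757 and 1056 CPM in TGF-β. Across mice the groups overlapped, because mouse 4 was high in both, but within each of 3 mice TGF-β was higher (log2 fold change -0.82 ± 0.10, adjusted p = 7.78e-07; -0.82 beyond the mixture). Vcam1, an adhesion molecule, and Traf1, an adaptor of TNF receptors, had -1.13 ± 0.20 and -1.16 ± 0.26 (adjusted p = 1.00e-04 and 9.86e-04). The macrophage growth factor Csf1 differed by -2.05 ± 0.16 (adjusted p = 2.29e-09) but only by -0.14 beyond the mixture (adjusted p = 0.415), with 59.7 to 65.7% of its TGF-β reads estimated as fibroblast reads.

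Goblet, club and basal cell genes were higher in EC. Of 20 goblet cell genes tested, 14 were higher and none lower in EC, with a median log2 fold change of 1.69 (1.36 beyond the mixture, with 16 higher and none lower). Muc5b, the main gel-forming mucin of mouse airways, was at 209, 326, 118 and 31.0 CPM in EC and 11.4, 5.19 and 3.56 CPM in TGF-β. Mouse 4 was lowest in EC and in TGF-β, and its EC library was close to its vehicle library while those of the other mice exceeded theirs. The log2 fold change was 4.38 ± 0.28 (adjusted p = 1.48e-10), and 4.04 beyond the mixture. Agr2, a disulfide isomerase needed for mucin folding, was at 42.4, 55.8, 20.2 and 18.7 CPM in EC and 3.62, 1.07 and 0.920 CPM in TGF-β, against 15.6 to 36.4 CPM in vehicle. EC libraries therefore overlapped with vehicle and TGF-β libraries lay below both (log2 fold change 3.98 ± 0.19, adjusted p = 1.67e-12). Tff2, a mucin-associated trefoil peptide, was at 20.1, 28.9, 13.1 and 14.2 CPM in EC and 0.199, 0 and 0.115 CPM in TGF-β, and Tff1 at 21.2, 15.2, 23.8 and 34.6 and 0.199, 0 and 0 CPM. With at most 5 reads of either gene over the TGF-β libraries, no fold is given. Slc26a4, the anion exchanger pendrin, had 3.41 ± 0.29 (adjusted p = 8.09e-09). Muc5ac did not pass the test, at 2.31, 4.16, 0.894 and 0.284 CPM in EC and 1.74, 1.37 and 1.26 CPM in TGF-β (log2 fold change 0.02 ± 0.54, adjusted p = 0.978).

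Of 23 club cell genes, 14 were higher and 4 (Ces1g, Gstm1, Gstm2 and Fmo2) lower in EC, with a median of 0.77 and of 0.57 beyond the mixture. Scgb1a1, the main secretory protein of club cells, was at 678, 773, 694 and 602 CPM in EC and 445, 374 and 322 CPM in TGF-β. Both groups lay below all vehicle libraries (780.2 to 1171 CPM), the TGF-β libraries further so (log2 fold change 0.93 ± 0.11, adjusted p = 6.09e-07; 0.57 beyond the mixture). Cyp2f2, a club cell cytochrome, was at 330.5, 317, 263 and 196 CPM in EC and 86.3, 68.9 and 49.7 CPM in TGF-β (log2 fold change 1.98 ± 0.11, adjusted p = 2.04e-11). Cbr2, a carbonyl reductase, and Scgb3a1, a secretoglobin of larger airways, differed by 3.46 ± 0.17 and 4.13 ± 0.24 (adjusted p = 2.07e-12 and 2.79e-11).

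Among 23 basal cell and keratin genes, 18 were higher and none lower in EC, with a median of 2.10 (1.70 beyond the mixture). Krt5, the basal cell keratin, was at 206, 423, 197 and 23.2 CPM in EC and 57.8, 26.9 and 1.72 CPM in TGF-β. Mouse 4 was low in EC, TGF-β and vehicle, so that the groups overlapped across mice while all 3 pairs were higher in EC (log2 fold change 3.14 ± 0.25, adjusted p = 2.59e-09). Krt5 had an adjusted p of 0.0598 in the fit without the mouse block. Krt14 and Krt6a, keratins of activated basal cells, had the same order within mice, with 3.66 ± 0.46 and 3.38 ± 0.31 (adjusted p = 1.51e-06 and 2.85e-08). Trp63, the master regulator of basal cells, was at 6.29, 12.1, 7.33 and 0.379 CPM in EC and 3.77, 2.75 and 0.460 CPM in TGF-β. It was higher in EC in 2 of 3 pairs (log2 fold change 1.43 ± 0.35, adjusted p = 0.00211) and had 1.12 beyond the mixture (adjusted p = 0.0197). Without the block the adjusted p was 0.155. Krt4, a keratin of suprabasal cells, was at 62.2, 52.4, 57.9 and 51.1 CPM in EC and 24.8, 14.0 and 21.5 CPM in TGF-β, both below the 175 to 244 CPM of vehicle (log2 fold change 1.40 ± 0.14, adjusted p = 1.09e-07).

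Genes of cornified and stratified epithelium gave some of the widest gaps. The serine protease Klk10 was at 107, 107, 67.1 and 54.0 CPM in EC and 1.19, 0.0763 and 0.115 CPM in TGF-β. Vehicle libraries lay at 25.4 to 35.3 CPM, below all EC libraries and above all TGF-β libraries (log2 fold change 7.08 ± 0.28, adjusted p = 1.73e-13). Klk13, of the same kallikrein cluster, was at 44.7, 48.5, 41.3 and 28.7 CPM in EC and 0.447, 0.458 and 0 CPM in TGF-β (log2 fold change 6.87 ± 0.27, adjusted p = 1.57e-13). Tgm1, the transglutaminase of the cornified envelope, was at 369.5, 339.8, 530.0 and 448 CPM in EC and 67.9, 65.3 and 71.6 CPM in TGF-β. The EC libraries overlapped with vehicle (289.9 to 407 CPM) and the TGF-β libraries lay well below (log2 fold change 2.65 ± 0.11, adjusted p = 3.52e-13). Vnn1, a pantetheinase, differed by 2.67 ± 0.12 (adjusted p = 5.04e-13).

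Alveolar type 2 (AT2) genes were mostly higher in EC than in TGF-β. Of 27 tested, 18 were higher and 5 (Lpcat1, Hc, Lrp2, Bex2 and Ppp1r14c) lower, with a median of 0.69, and beyond the mixture 12 were higher and 5 lower with a median of 0.32. Sftpa1, the surfactant collectin SP-A, was at 802, 907, 605 and 978 CPM in EC and 60.6, 38.2 and 23.1 CPM in TGF-β. EC libraries overlapped with vehicle (727 to 963 CPM), and all TGF-β libraries lay far below both (log2 fold change 4.38 ± 0.22, adjusted p = 4.81e-12; 3.96 beyond the mixture). Sftpb, needed for the surfactant film, was at 3894, 4386, 4691 and 3898 CPM in EC and 1411, 1288 and 892 CPM in TGF-β (log2 fold change 1.89 ± 0.12, adjusted p = 9.97e-11). Sftpd had 2.43 ± 0.12 (adjusted p = 3.14e-12). Sftpc, the most specific AT2 surfactant gene, broke this order, at 1614, 1995, 1274 and 3180.5 CPM in EC and 2465, 1504 and 936 CPM in TGF-β. The groups overlapped, 1 of 3 pairs was higher in EC, and the log2 fold change was 0.43 ± 0.27 (adjusted p = 0.206). Leaving out mouse 2 gave 0.90 (adjusted p = 0.0209) and leaving out mouse 4 gave -0.14 (adjusted p = 0.613). Both treatments lay below vehicle for Sftpc, where 3715 to 5072 CPM were measured. Abca3, the lamellar body lipid transporter, and Lamp3, a lamellar body membrane protein, had 1.08 ± 0.13 and 1.43 ± 0.23 (adjusted p = 8.07e-07 and 2.82e-05). Il33, an alarmin cytokine that AT2 cells store in the nucleus, was at 349, 299, 310.2 and 439 CPM in EC and 75.5, 67.0 and 63.8 CPM in TGF-β. Vehicle libraries lay between at 123 to 201 CPM (log2 fold change 2.32 ± 0.16, adjusted p = 3.12e-10). Hc, complement C5, ran the other way, at 7.34, 9.33, 5.90 and 7.29 CPM in EC and 74.6, 49.3 and 32.6 CPM in TGF-β (log2 fold change -2.75 ± 0.22, adjusted p = 2.46e-09; -3.05 beyond the mixture).

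Alveolar type 1 (AT1) genes were called in both directions. Of 26 tested, 7 were higher and 13 lower in EC, where 20.9% and 22.2% of all genes were. The share higher was thus near that of all genes. The median was -0.50, and -0.55 beyond the mixture. Col4a3, a chain of the alveolar basement membrane collagen, was at 1.40, 2.87, 2.09 and 2.56 CPM in EC and 39.2, 33.2 and 31.0 CPM in TGF-β. Vehicle libraries, at 6.18 to 12.6 CPM, stood above all EC and below all TGF-β libraries (log2 fold change -3.82 ± 0.25, adjusted p = 1.88e-10; -4.10 beyond the mixture). Its partner chain Col4a4 was at 4.40, 4.02, 3.82 and 3.41 CPM in EC and 42.8, 37.8 and 39.4 CPM in TGF-β, the same order. For both, fibroblast reads were estimated at no more than 1.98% of the TGF-β reads, in contrast to most matrix genes below. Scnn1g, a subunit of the sodium channel ENaC, had -2.33 ± 0.19 (adjusted p = 4.57e-09). The subunit Scnn1b, which is not on the AT1 list, was at 0.489, 1.08, 0.537 and 0.663 CPM in EC and 32.7, 26.0 and 26.7 CPM in TGF-β (log2 fold change -5.32 ± 0.28, adjusted p = 6.22e-12). Cldn18, the alveolar claudin, was at 142, 119, 111 and 179 CPM in EC and 383, 297 and 269 CPM in TGF-β (log2 fold change -1.21 ± 0.15, adjusted p = 2.13e-06). Cav1, the caveolar coat protein, was higher in TGF-β by a log2 fold change of -1.73 ± 0.12, and -0.98 beyond the mixture (adjusted p = 4.49e-10 and 6.85e-06).

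The 7 AT1 genes higher in EC were Aqp5, Clic5, Emp2, Gprc5a, Krt7, Tspan8 and Lmo7. Aqp5, the water channel, was at 959.9, 933, 1166 and 1011 CPM in EC and 414, 394 and 311 CPM in TGF-β. All TGF-β libraries lay below all EC and vehicle libraries (log2 fold change 1.47 ± 0.10, adjusted p = 2.84e-10). Ager, Hopx and Pdpn, which mark AT1 cells most often, did not pass the test, with -0.13 ± 0.20, 0.21 ± 0.16 and 0.22 ± 0.17 (adjusted p = 0.627, 0.320 and 0.332). Without mouse 4, Ager passed the test at -0.49 (adjusted p = 0.0169). Beyond the mixture Ager had -0.54 (adjusted p = 0.0437). Among 29 lung epithelial transcription factors 15 were higher and 4 lower in EC, and beyond the mixture 9 were higher and none lower. Elf5, a factor of lung progenitors, was at 12.6, 15, 12.9 and 18.0 CPM in EC and 4.47, 3.59 and 2.64 CPM in TGF-β (log2 fold change 2.06 ± 0.20, adjusted p = 4.71e-08). Cebpa, an AT2 factor, had 1.24 ± 0.11, Foxa2 0.81 ± 0.10 and Nkx2-1 0.44 ± 0.12 (adjusted p = 2.47e-08, 1.98e-06 and 0.00453). The call of Nkx2-1 was lost without mouse 3 (adjusted p = 0.0752) and beyond the mixture, with 0.05 (adjusted p = 0.814).

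On the TGF-β side, 29 of 36 TGF-β targets and feedback genes were higher and 3 (Cdkn1c, Bambi and Tsc22d1) lower than in EC, with a median of -1.21, and beyond the mixture 18 were higher and 3 lower with a median of -0.38. The leading gene was Ctse, cathepsin E, an intracellular aspartic protease of epithelia, at 1.82, 1.65, 3.76 and 1.80 CPM in EC and 194, 198 and 196 CPM in TGF-β. The 3 TGF-β libraries nearly coincided, and EC libraries stayed near the range of vehicle (0.963 to 3.10 CPM). The log2 fold change was -6.34 ± 0.20 (adjusted p = 4.55e-15) and -5.95 beyond the mixture, with at most 0.878% of the TGF-β reads estimated as fibroblast reads. Nrk, a kinase of the germinal centre kinase family, was at 1.47, 2.51, 5.19 and 1.89 CPM in EC and 122, 222 and 221 CPM in TGF-β, with fibroblast reads of at most 0.198% in TGF-β (log2 fold change -5.88 ± 0.22, adjusted p = 6.17e-14). Pdgfb, a growth factor for mesenchymal cells, was at 5.80, 8.40, 9.18 and 5.30 CPM in EC and 73.4, 105 and 85.3 CPM in TGF-β. Vehicle libraries lay between at 10.8 to 20.2 CPM (log2 fold change -3.51 ± 0.16, adjusted p = 8.55e-13; -3.61 beyond the mixture). Itgb6, the chain of the integrin that frees TGF-β from its latent form, was at 61.5, 56.1, 101 and 73.9 CPM in EC and 189.5, 207 and 234 CPM in TGF-β (log2 fold change -1.46 ± 0.12, adjusted p = 6.53e-09). Ccn2, connective tissue growth factor, was at 126, 97.3, 106 and 92.9 CPM in EC and 348, 429 and 361 CPM in TGF-β. EC libraries lay around the vehicle level and TGF-β libraries well above it (log2 fold change -1.91 ± 0.09, adjusted p = 1.08e-12; -1.74 beyond the mixture). Thbs1, which activates latent TGF-β, had -1.84 ± 0.10, and the matricellular Ccn1 had -1.41 ± 0.09 (adjusted p = 1.81e-11 and 2.10e-10).

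Several feedback genes and cell cycle inhibitors of the pathway were also higher in TGF-β, while Bambi and Cdkn1c were higher in EC. Pmepa1, which blocks SMAD activation, was at 22.6, 27.2, 38.4 and 51.7 CPM in EC and 245, 239 and 258 CPM in TGF-β. Its difference of -2.77 ± 0.13 (adjusted p = 1.67e-12) shrank to -0.65 beyond the mixture (adjusted p = 0.00317), with 43.7 to 55.0% of its TGF-β reads estimated as fibroblast reads. The SMAD corepressor Skil had -1.54 ± 0.11 directly and -0.72 beyond the mixture, both called. Smad7, the inhibitory SMAD, had -0.75 ± 0.16 (adjusted p = 8.45e-04), and -0.41 (adjusted p = 0.0956) beyond the mixture. Inhba, the activin A subunit, was at 13.2, 19.4, 12.2 and 11.5 CPM in EC and 144, 164 and 141 CPM in TGF-β (log2 fold change -3.45 ± 0.14, adjusted p = 2.87e-13; -0.96 beyond the mixture). Cdkn2b, the inhibitor p15 of the cell cycle, was at 10.3, 10.6, 13.2 and 8.90 CPM in EC and 20.9, 31.3 and 21.5 CPM in TGF-β. Fibroblast reads were estimated at no more than 0.505% of its TGF-β reads, and its difference was -1.18 ± 0.14 (adjusted p = 6.22e-07) and -1.57 beyond the mixture. Its neighbour Cdkn2a had -3.22 ± 0.44 (adjusted p = 5.28e-06) from levels of at most 6.95 CPM. Bambi, a decoy receptor, was among the 3 genes higher in EC (1.15 ± 0.21, adjusted p = 1.10e-04).

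Laminin-332 chains belonged to the TGF-β genes with few fibroblast reads. Lama3 was at 11.8, 20.7, 21.5 and 3.50 CPM in EC and 99.9, 116 and 90.3 CPM in TGF-β, and Lamb3 at 118, 125, 144 and 98.5 CPM in EC and 296, 289 and 228 CPM in TGF-β. TGF-β libraries were higher than all EC libraries for either chain (log2 fold change -2.97 ± 0.26 and -1.12 ± 0.09, adjusted p = 1.06e-08 and 4.34e-09), and beyond the mixture -3.29 and -1.47. Of 27 integrin and laminin genes, 17 were lower and 4 (Itga1, Itga3, Itga6 and Lamc1) higher in EC, and beyond the mixture 10 lower and 4 higher.

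Extracellular matrix genes had the highest share of estimated fibroblast reads among the pathway and cell type lists. Of 46 extracellular matrix genes, 41 were lower and none higher in EC, with a median of -2.57, and beyond the mixture 14 were lower and 7 higher with a median of -0.16. The median share over these genes was 66.3% of the reads in TGF-β libraries. Fn1, fibronectin, was at 677, 745, 358 and 447 CPM in EC and 6927, 7783 and 8719.5 CPM in TGF-β. It was the most abundant of the named matrix genes in TGF-β libraries, with a difference of -4.03 ± 0.19 (adjusted p = 1.96e-12), -0.68 beyond the mixture (adjusted p = 0.0151) and 61.8 to 68.9% fibroblast reads. Col1a1, the chain of fibrillar collagen, was at 141, 173, 71.8 and 84.4 CPM in EC and 1104, 1051 and 1037 CPM in TGF-β. Its difference of -3.50 ± 0.23 (adjusted p = 2.12e-10) became 0.17 (adjusted p = 0.379) beyond the mixture. The direct difference of Col1a1 and the beyond-mixture value thus point to opposite sides, and only the first passed the test. The fibroblast cadherin Cdh11, the matricellular Ccn4, the membrane protein Ank and the transcription factor Zeb1 likewise lost their calls, with -0.08, -0.04, -0.17 and -0.15 beyond the mixture. Col1a1, Cdh11 and Ccn4 are among the reference genes that set the fibroblast share, so the loss of their calls is not independent of that estimate. Col7a1 was at 7.62, 17.7, 11.5 and 3.98 CPM in EC and at a narrow 193, 194 and 194 CPM in TGF-β (log2 fold change -4.40 ± 0.27, adjusted p = 6.29e-11; -0.55, adjusted p = 0.0862, beyond the mixture). Dmp1, a matrix phosphoprotein, was listed at 0, 0, 0 and 0.189 CPM in EC and at 38.9, 25.8 and 58.8 CPM in TGF-β, where fibroblast reads were estimated at 129 to 196%.

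Other genes of this kind kept a difference beyond the mixture. Igfbp7, a secreted binding protein of insulin-like growth factors, was at 18.0, 26.6, 20.6 and 23.9 CPM in EC and 379, 392 and 358 CPM in TGF-β. Its log2 fold change was -4.05 ± 0.17 (adjusted p = 4.18e-13) and -2.33 beyond the mixture (adjusted p = 5.18e-09). Adam12, a membrane metalloprotease, was at 3.70, 3.95, 6.74 and 2.37 CPM in EC and 95.4, 101 and 82.8 CPM in TGF-β (-3.10 beyond the mixture, adjusted p = 8.19e-10). St6gal1 was at 9.99, 9.33, 8.35 and 6.91 CPM in EC and 67.3, 84.9 and 74.9 CPM in TGF-β (-3.15 ± 0.14 directly, adjusted p = 7.50e-13; -2.05 beyond the mixture). Lox, the collagen crosslinking oxidase, and Timp3, a metalloprotease inhibitor, had -1.22 and -1.22 beyond the mixture, each with an adjusted p of at most 8.32e-06. Lox is itself among the reference genes that set the fibroblast share, so its value is not independent of that estimate. The contractile list had 24 of 32 genes lower and 2 (Tagln2 and Mylk) higher in EC, and 17 lower and 2 higher beyond the mixture. Acta2, smooth muscle actin, was at 9.08, 8.69, 3.58 and 6.82 CPM in EC and 233, 286 and 194 CPM in TGF-β. EC libraries stayed near the vehicle level of 4.20 to 6.26 CPM (log2 fold change -5.31 ± 0.20, adjusted p = 7.28e-14), and -0.62 was left beyond the mixture (adjusted p = 0.00588). Tagln and Cald1, actin-binding proteins of smooth muscle, had -6.21 ± 0.26 and -3.40 ± 0.15 directly (adjusted p = 2.87e-13 and 8.13e-13) and -0.90 and -0.59 beyond the mixture (adjusted p = 0.0113 and 9.16e-04).

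Genes tied to the epithelial to mesenchymal transition were divided by kind. Of 28, 15 were lower and 10 higher in EC, and the 10 higher were Snai3 and the epithelial factors Ovol1, Ovol2, Grhl1, Grhl2, Esrp1, Esrp2, Elf3, Klf4 and Klf5. Beyond the mixture 3 were lower and 5 higher, near the 10.5% and 15.7% of all genes. Elf3, an epithelial ETS factor, was at 126, 111, 107 and 136 CPM in EC and 42.4, 43.1 and 44.8 CPM in TGF-β (log2 fold change 1.44 ± 0.09, adjusted p = 1.31e-10; 1.05 beyond the mixture). E-cadherin, Cdh1, was at 699, 672, 884 and 703 CPM in EC and 815, 843 and 865 CPM in TGF-β, a difference that did not pass the test (-0.17 ± 0.09, adjusted p = 0.147). Beyond the mixture Cdh1 was lower in EC by -0.55 (adjusted p = 1.13e-04) and Epcam by -0.87 (adjusted p = 3.34e-07). Keratins of simple epithelium were higher in EC. Krt7 was at 5954, 5396, 7176 and 7413 CPM in EC and 2607, 2500.4 and 2384 CPM in TGF-β (log2 fold change 1.39 ± 0.11, adjusted p = 1.88e-09), Krt19 differed by 1.18 ± 0.15 and Krt8 by 0.68 ± 0.11 (adjusted p = 1.63e-06 and 3.03e-05). Beyond the mixture Krt7 had 1.00, Krt19 0.80 and Krt8 0.29 (adjusted p = 2.91e-07, 2.61e-04 and 0.0458), and Krt8 was not called with cleaned fibroblast libraries, an alternative chosen after seeing the data (adjusted p = 0.0590). Clu, the secreted chaperone clusterin, was the highest of the named genes in TGF-β libraries, at 7782, 7342, 11562 and 11013 CPM in EC and 15188, 17470.0 and 16543 CPM in TGF-β (log2 fold change -0.76 ± 0.10, adjusted p = 2.26e-06; -1.14 beyond the mixture).

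Genes of antigen presentation were lower in EC than in TGF-β. Of 19 MHC presentation genes, 11 were lower and 2 (H2-K1 and H2-D1) higher in EC, with a median of -0.69, and beyond the mixture 10 were lower and 1 higher. The class II gene H2-Ab1 was at 3.07, 4.67, 3.58 and 4.45 CPM in EC and 63.2, 44.5 and 31.1 CPM in TGF-β. Vehicle libraries lay between at 5.05 to 10.3 CPM (log2 fold change -3.55 ± 0.20, adjusted p = 2.81e-11; -3.77 beyond the mixture). Cd74, the invariant chain, was at 29.1, 31.7, 19.9 and 52.9 CPM in EC and 273, 214 and 161 CPM in TGF-β (log2 fold change -2.64 ± 0.24, adjusted p = 1.76e-08). Within TGF-β both genes were highest in mouse 2 and lowest in mouse 4. H2-Aa and H2-Eb1 had -4.10 ± 0.34 and -3.79 ± 0.33 (adjusted p = 6.65e-09 and 1.22e-08), and their transactivator Ciita was at 0.908, 0.574, 0.298 and 0.0947 CPM in EC and 7.99, 5.80 and 2.41 CPM in TGF-β (adjusted p = 1.73e-05). Fibroblast reads were estimated at no more than 3.05% of the H2-Ab1 reads in TGF-β libraries, and Ptprc of leukocytes was at most 0.0810 CPM there. Of 36 interferon response genes, 18 were lower and 2 (Oas1a and Mx1) higher in EC, and beyond the mixture 11 lower and 1 higher. Ifit2, an antiviral RNA-binding protein, was at 3.63, 2.23, 3.76 and 3.31 CPM in EC and 8.59, 11.8 and 11.5 CPM in TGF-β (log2 fold change -1.73 ± 0.23, adjusted p = 2.89e-06). Mx1, an antiviral GTPase, was at 48.5, 52.7, 59.7 and 47.4 CPM in EC and 28.7, 29.5 and 18.2 CPM in TGF-β (log2 fold change 1.04 ± 0.12, adjusted p = 3.28e-07).

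Cell cycle genes were higher in EC as a group, by small steps. Of 41 S phase genes 30 were higher and none lower, with a median of 0.47, and beyond the mixture 17 were higher and 1 lower with a median of 0.29. Of 48 G2/M genes 34 were higher and none lower, with a median of 0.46, and beyond the mixture 21 were higher and none lower with a median of 0.24. Mcm5, a subunit of the replicative helicase, was at 404, 375, 397 and 412 CPM in EC and 216, 195 and 208 CPM in TGF-β. The EC libraries were level with vehicle (387 to 409 CPM) and the TGF-β libraries stood apart (log2 fold change 0.94 ± 0.09, adjusted p = 2.64e-08; 0.66 beyond the mixture). Cdt1, which loads that helicase, had 1.02 ± 0.09 and Cdc20, an activator of the anaphase-promoting complex, 1.11 ± 0.09 (adjusted p = 2.19e-08 and 3.58e-09).

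Metabolic genes made up several of the lists with the largest share higher in EC. Of 38 glycolysis and hypoxia genes, 26 were higher and 5 (Pfkm, Eno2, Pfkfb3, Vegfa and Adm) lower, with a median of 0.82 and of 0.78 beyond the mixture. Slc16a3, the lactate exporter MCT4, was at 38.3, 40.1, 72.2 and 48.0 CPM in EC and 2.73, 3.43 and 1.95 CPM in TGF-β. All EC libraries exceeded vehicle (9.55 to 12.2 CPM) and all TGF-β libraries lay below it (log2 fold change 4.18 ± 0.19, adjusted p = 1.08e-12; 3.70 beyond the mixture). Ldha, lactate dehydrogenase, was at 3734, 3638, 3818 and 5193 CPM in EC and 1068, 1008 and 959 CPM in TGF-β (log2 fold change 2.02 ± 0.11, adjusted p = 2.11e-11). Gapdh, a glycolytic enzyme often used as a reference gene, differed by 1.65 ± 0.10 (adjusted p = 3.54e-11). The mitochondrial adenylate kinase Ak4 and the hypoxia gene Ndrg1 had 2.68 ± 0.15 and 1.76 ± 0.09 (adjusted p = 1.58e-11 and 7.70e-12). Vegfa, the vascular growth factor, was higher in TGF-β by -1.63 ± 0.10 (adjusted p = 9.33e-11), but by -0.28 beyond the mixture (adjusted p = 0.0258), with 64.1 to 70.0% fibroblast reads in TGF-β.

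Of 34 cholesterol synthesis genes, 29 were higher and 1 (Hsd17b7) lower in EC, with a median of 0.65 and of 0.51 beyond the mixture, where 25 were higher and 1 lower. Lss, lanosterol synthase, was at 164, 181, 188 and 151 CPM in EC and 74.1, 78.2 and 64.9 CPM in TGF-β (log2 fold change 1.26 ± 0.09, adjusted p = 3.01e-10). Of 41 unfolded protein response genes, 21 were higher and 8 lower, where 20.9% and 22.2% of all genes were. Beyond the mixture 22 were higher and 3 lower. Ddit3, Trib3 and Chac1 of the stress-induced arm were among the 8 and were not called beyond the mixture. Sdf2l1, a chaperone of the endoplasmic reticulum, was at 114, 107, 99.4 and 112 CPM in EC and 43.7, 35.0 and 31.8 CPM in TGF-β (log2 fold change 1.51 ± 0.12, adjusted p = 2.44e-09). Slc7a11, the cystine importer of glutathione synthesis, was at 358, 345, 369 and 339 CPM in EC and 79.5, 108 and 129 CPM in TGF-β. It exceeded vehicle in every EC library (169 to 303 CPM in vehicle) and fell short of it in every TGF-β library (log2 fold change 1.84 ± 0.15, adjusted p = 3.58e-09). Of 36 xenobiotic and oxidant metabolism genes, 16 were higher and 10 lower, and beyond the mixture 16 were higher and 4 lower (15.7% and 10.5% of all genes). Gpx2, a glutathione peroxidase of epithelia, and Gsto1 had 1.54 ± 0.09 and 1.28 ± 0.10, and Cyp1b1, a target of the aryl hydrocarbon receptor, -0.997 ± 0.10 (adjusted p = 6.79e-11, 2.38e-09 and 6.14e-08).

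Ligands and receptors that the study followed in the fibroblasts were looked up in the epithelial libraries. Areg, an EGF receptor ligand, was at 151, 168, 188 and 229 CPM in EC and 159.8, 128 and 123 CPM in TGF-β. The groups overlapped across mice and all 3 pairs were higher in EC (log2 fold change 0.48 ± 0.12, adjusted p = 0.00271), but not beyond the mixture (0.12, adjusted p = 0.464). Tgfa had 0.68 ± 0.12 directly and 0.29 beyond the mixture (adjusted p = 8.81e-05 and 0.0769), and Ereg 0.71 ± 0.14 and 0.93 (adjusted p = 4.04e-04 and 2.75e-05). Their receptor Egfr was at 26.1, 38.5, 19.6 and 18.6 CPM in EC and 68.2, 82.8 and 77.1 CPM in TGF-β (-1.73 ± 0.20, adjusted p = 4.33e-07; -0.43, adjusted p = 0.0804, beyond the mixture). Artn, a neurotrophic ligand, and Pthlh, the parathyroid hormone-related peptide, were higher in EC by 1.35 ± 0.14 and 1.32 ± 0.13 (adjusted p = 1.12e-07 and 7.61e-08). Ptn, pleiotrophin, was low, at 2.31, 3.16, 2.15 and 2.84 CPM in EC and 3.42, 2.06 and 1.38 CPM in TGF-β, and did not pass the test (adjusted p = 0.716). Of the receptors of the treatments themselves, the TNF receptor Tnfrsf1b was higher in EC by 1.21 ± 0.10 (adjusted p = 7.34e-09) and Tgfbr1 higher in TGF-β by -0.40 ± 0.13 (adjusted p = 0.0142; -0.65 beyond the mixture). Tgfbr2 had 0.33 ± 0.09 (adjusted p = 0.00602) but was not called beyond the mixture (0.21, adjusted p = 0.110), and Il1r1 had 0.18 ± 0.11 (adjusted p = 0.194). Without mouse 3, Tgfbr1 and Tgfbr2 did not pass the test (adjusted p = 0.0662 and 0.0700).

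Of 30 IL-6/JAK/STAT3 genes, 10 were higher and 8 lower in EC, where 20.9% and 22.2% of all genes were, and beyond the mixture 8 were higher and 5 lower. Socs3, the feedback inhibitor induced by STAT3, was at 56.4, 77.0, 59.1 and 50.9 CPM in EC and 41.5, 32.1 and 25.4 CPM in TGF-β (log2 fold change 0.90 ± 0.13, adjusted p = 6.53e-06). Cish, an inhibitor of STAT5 signals from the same family, was at 6.01, 10.8, 11.6 and 11.2 CPM in EC and 43.3, 54.4 and 67.9 CPM in TGF-β. The order was thus turned between these relatives (Cish -2.25 ± 0.17, adjusted p = 1.07e-09; -2.15 beyond the mixture). Jak2 had -1.02 ± 0.11 and Lifr, the receptor of leukemia inhibitory factor, 1.91 ± 0.13 (adjusted p = 1.41e-07 and 3.39e-10).

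Wnt and BMP genes included marked differences within families. Lgr5, the R-spondin receptor known from stem cells, was at 16.6, 12.1, 12.6 and 12.5 CPM in EC and 0.298, 1.07 and 0.460 CPM in TGF-β. Vehicle libraries lay between at 4.33 to 7.62 CPM (log2 fold change 4.54 ± 0.36, adjusted p = 2.81e-09). Its relative Lgr6 was at 3.63, 4.09, 3.88 and 1.61 CPM in EC and 58.8, 60.3 and 52.8 CPM in TGF-β, the reverse order (log2 fold change -4.22 ± 0.23, adjusted p = 1.41e-11; -2.82 beyond the mixture). Wnt4 was higher in EC by 3.02 ± 0.26 and Wnt11 higher in TGF-β by -3.15 ± 0.48 (adjusted p = 8.33e-09 and 1.70e-05). Id1, an inhibitor of helix-loop-helix factors and target of BMP signals, was at 63.4, 58.5, 105 and 96.7 CPM in EC and 20.6, 14.3 and 10.7 CPM in TGF-β. EC libraries overlapped with vehicle (63.2 to 115 CPM) and TGF-β libraries lay below both (log2 fold change 2.42 ± 0.20, adjusted p = 5.54e-09). Gdf15, a stress-induced member of the TGF-β family, had 2.31 ± 0.26 (adjusted p = 4.31e-07). Of 39 Wnt and Notch genes 5 were higher and 16 lower in EC, where 20.9% and 22.2% of all genes were. Beyond the mixture 2 were higher and 9 lower (15.7% and 10.5% of all genes).

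Of 31 tight and gap junction genes, 10 were higher and 4 (Cldn4, Cldn6, Cldn18 and Jup) lower in EC, where 20.9% and 22.2% of all genes were. Beyond the mixture 8 were higher and 11 lower (15.7% and 10.5% of all genes). Cldn6, a claudin of embryonic epithelium, was at 4.61, 4.81, 8.05 and 8.33 CPM in EC and 36.3, 61.2 and 58.3 CPM in TGF-β (log2 fold change -2.86 ± 0.17, adjusted p = 5.08e-11). Tjp3, the scaffold ZO-3, was at 150.4, 152, 153 and 118 CPM in EC and 48.1, 39.2 and 34.9 CPM in TGF-β (log2 fold change 1.77 ± 0.10, adjusted p = 2.04e-11). Of 27 ciliated cell genes, 5 were higher and 7 lower in EC, near the 20.9% and 22.2% of all genes. Beyond the mixture 3 were higher and 7 lower, where 15.7% and 10.5% of all genes were. The median log2 fold change of this list was -0.23 directly and -0.56 beyond the mixture. Foxj1, the main regulator of motile cilia, was at 31.6, 41.9, 21.3 and 9.75 CPM in EC and 20, 19.2 and 11.3 CPM in TGF-β. The groups overlapped, and the call was lost without the block or without mouse 1 or 2 (log2 fold change 0.44 ± 0.17, adjusted p = 0.0458; 0.07, adjusted p = 0.826, beyond the mixture). Mcidas, which starts the multiciliated programme, was at 4.12, 7.11, 2.98 and 0.473 CPM in EC and 0.0993, 0 and 0 CPM in TGF-β (adjusted p = 4.35e-07), whereas the axonemal gene Tekt1 did not pass the test (adjusted p = 0.277). The axonemal genes Dnah5 and Spag6l were higher in TGF-β, by -1.35 ± 0.40 and -1.97 ± 0.64 (adjusted p = 0.00871 and 0.0161). Beyond the mixture they had -1.77 and -2.39 (adjusted p = 0.00215 and 0.00764). Both were low, at no more than 3.57 CPM in any EC or TGF-β library.

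To place each difference, both treatments were also set against the vehicle libraries in the same fit. None of these values was corrected for fibroblast RNA. TGF-β libraries held 26.4 to 32.1% of it, EC libraries 5.25 to 17.4% and vehicle libraries 4.31 to 9.61%. How far this moved the values and counts against vehicle was not tested. The comparisons share the vehicle libraries and the estimate of the spread, so their values are given side by side and not as independent evidence. EC had 354 genes (1.96%) higher and 440 (2.44%) lower than vehicle. TGF-β had 3783 (21.0%) higher and 3617 (20.1%) lower. Pigr was 3.57 in EC and -3.20 in TGF-β against vehicle (adjusted p = 1.74e-13 and 8.90e-11). Reg3g was 1.06 and -5.58, Ltf 1.65 and -2.47, and Klk10 1.44 and -5.64, so these defence and protease genes had called changes on opposite sides of vehicle. Cxcl5 was 3.99 and -0.51, and Lcn2 4.47 and -0.53. For this pair the EC change was much the larger one, and the TGF-β change was small although called. Sftpa1 was -0.05 in EC (adjusted p = 0.947) and -4.43 in TGF-β (adjusted p = 5.15e-12). Mcm5 was -0.01 in EC (adjusted p = 0.987) and -0.95 in TGF-β (adjusted p = 2.26e-08). For Sftpa1, Krt7 (-0.09 and -1.48) and Mcm5 the called change was that of TGF-β. Other surfactant and keratin genes were called in EC too, among them Sftpc at -1.03, Sftpb at -0.48 and Krt4 at -1.84 against vehicle (adjusted p = 0.0133, 0.00614 and 1.97e-09). Scnn1b was -2.61 in EC and 2.72 in TGF-β (adjusted p = 5.08e-06 and 6.54e-09). Col4a3 was -2.17 and 1.65, H2-Ab1 -1.08 and 2.46, Pdgfb -1.07 and 2.44, and Hc -2.04 and 0.71. These 5 genes had a called decrease in EC beside a called increase in TGF-β. Ctse was 0.25 in EC (adjusted p = 0.725) and 6.60 in TGF-β (adjusted p = 1.03e-14).

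**Figure D5:**
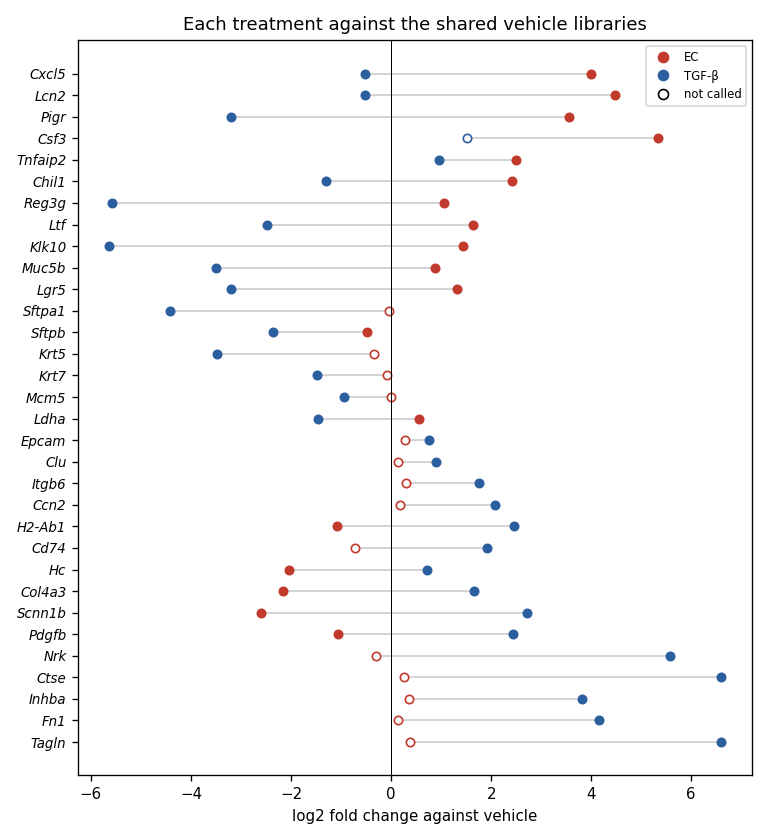
Log2 fold change against vehicle (horizontal axis) of EC (red) and TGF-β (blue) for named genes, joined by a line; open circles did not pass the test, and both treatments share the vehicle libraries. Pigr lies at 3.57 and -3.20, and Scnn1b at -2.61 and 2.72, on opposite sides of vehicle. The values are not corrected for fibroblast RNA.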

How the data were processed

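Bulk RNA of re-sorted organoid cultures was sequenced on an Illumina NovaSeq instrument. Per the labels, the authors trimmed adapters with Trimmomatic 0.30 and used DESeq2 1.34.0 for their own tests, according to the submitters' processing notes. The reads were aligned to GRCm38 patch 6 according to the paper and to GRCm39 according to the labels, so no gene coordinates are given apart from the RefSeq promoters. The aligner and the counting program are not given in the sources used here. The authors deposited raw counts, whole numbers of reads for 55487 Ensembl genes per library, without normalization. The kit marks strand, but how reads of paralogs and overlapping genes were counted is not described.

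From these counts, edgeR 4.0.16 in R 4.3.3 fitted the quasi-likelihood test (two-sided) with TMM scaling to all 15 epithelial libraries, with treatment and mouse as terms, for genes averaging at least 1 raw read. The contrast of EC and TGF-β rests on 8 residual degrees of freedom and a biological coefficient of variation of 12.7%. P-values were adjusted over all tested genes with the Benjamini-Hochberg method at 0.05. The pairing comes from the mouse number in the labels. Deviations from group means correlated by 0.233, 0.0657 and 0.207 across genes within mice 2, 3 and 4 and by -0.0833 on average between mice. Deviations from a group mean cancel within the group, so the value between mice is tied to those within mice and is no separate evidence. Libraries of one group differed far beyond sampling noise, so none was a repeat. No molecular identifiers are described, and 3 reads correspond to 0.159 to 0.363 CPM in the 7 libraries, a limit for counting error only.

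The fibroblast share used reference genes of at least 50 CPM in the partner library. The expected mixture entered as an offset with a prior of 0.1 CPM. It assumes that the fibroblast library of a culture shows what its fibroblasts express, although the EC partners held epithelial RNA. The estimated fibroblast reads of a gene are the share times the partner's level, as a percentage of the level in the epithelial library. The fits were tested on simulated data. The named genes were, for either direction, the 12 of smallest adjusted p that differed by more than 1 (log2) and kept their sign in all 3 pairs, the same among genes also called beyond the mixture, members of 31 hand-written lists and 5 reference lists, and genes of the study's text. Members and lists were chosen with earlier results of these data known. Alternatives were DESeq2 1.42.0, its size factors, no scaling, other filters, robust estimation, no block, 7 libraries alone, each mouse and library left out, subtraction, the share as a covariate, and other estimates of the share. Some genes that this rule names are not reported here.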

Additional observations from a re-analysis of the deposited data

Results flagged for a closer look

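Among the 4 EC libraries, single libraries stood apart from the other 3 in 12 of 171 gene levels, by a gap above Dixon's 95% critical value. Chance alone flags about 1 in 20 groups. The EC library of mouse 4 was high for Cxcl5 (1935.5 CPM, the others 1083.8 to 1213.1), Cxcl15 (3181.7 CPM, the others 1886.0 to 2074.3) and Ldha (5192.8 CPM, the others 3637.5 to 3818.1). The same library was low for Zc3h12a (38.4 CPM, the others 60.8 to 63.8), Tgfbr1 (94.4 CPM, the others 113 to 117) and Tjp3 (118 CPM, the others 150.5 to 153), and it was the only EC library with reads of Dmp1 (0.189 CPM). The EC library of mouse 3 was high for Ctse (3.76 CPM, the others 1.65 to 1.82), Cdh1 (884 CPM, the others 672 to 703) and Il22ra1 (4.59 CPM, the others 1.23 to 1.65). The EC library of mouse 1 was high for Lgr5 (16.6 CPM, the others 12.1 to 12.6) and low for Cish (6.01 CPM, the others 10.8 to 11.6). Cdh1 of mouse 3 lay above the TGF-β libraries (815 to 865 CPM), and the other 3 EC libraries lay below them. For the other 11 genes all 4 EC libraries lay on one side of the 3 TGF-β libraries.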

How the results depend on the processing

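The count of 7764 genes stayed within 1.5 times under other filters, robust estimation, DESeq2 (7787) and its size factors, and ranged from 6320 (without mouse 3) to 7704 when mice or single EC or TGF-β libraries were left out, with 3098 to 3788 higher and 3039 to 3916 lower in EC. Without scaling factors the split moved from 3766 higher and 3998 lower to 2882 higher and 5006 lower, and the median log2 fold change of all genes from -0.06 to -0.19. The correction for fibroblast RNA moved the count most. Beyond the expected mixture 4727 genes were called (1892 lower), with the share at its 75th percentile 4224 (1672 lower), and after subtraction of the fibroblast reads 2336 were lower. Alternatives chosen after seeing the data gave 4657 (1880 lower) with fibroblast libraries cleaned of epithelial RNA and 3544 (2196 higher, 1348 lower) with the share taken from Xist. With the share as a covariate 404 genes were called (247 higher, 157 lower). The share hardly overlaps between the treatments, so the covariate and the treatment cannot be told apart there. The difference in the fibroblast share was 13.7 to 22.2 percentage points under other estimates and 15.01 to 18.8 points without single mice, where the smallest possible p was 0.1 or 0.2.

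The mouse as a block is supported by the mouse numbers in the labels. Without the replicate block 7043 genes were called in 15 libraries. In the 7 libraries alone 6492 were called without the block and 5984 with it. Among 170 named genes Krt5, Trp63, Ngfr, Foxj1 and Dnah5 lost their calls without the block in 15 libraries. No other call of a named gene was lost without the block.

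Genes with small differences changed sign, and under corrections for fibroblast RNA so did some with large called differences. Directly, these had -3.50 for Col1a1, -4.32 for Cdh11, -4.33 for Ccn4, -3.04 for Ank, -2.64 for Zeb1, -2.52 for Sox9 and -2.05 for Csf1. Tnfaip3 and Vcam1 had -1.24 and -1.13. Leaving out mice or libraries gave Muc5ac -0.81 to 0.60, Sftpc -0.14 to 0.90, Ager -0.49 to 0.20, Pdpn -0.063 to 0.42 and Ptn -0.20 to 0.37. Muc5ac was -0.075 in the 7 libraries with the block, -0.10 without scaling and -0.062 in DESeq2. Beyond the mixture, values of the opposite sign were -0.26 for Muc5ac, -0.17 for Hopx, -0.11 for Pdpn, 0.17 for Col1a1 and 0.043 for Sox9. Subtraction gave -0.45 for Muc5ac, -0.034 for Sftpc, -0.18 for Hopx, -0.13 for Pdpn and 1.47 for Ank. With the share at its 75th percentile they were 0.24 for Csf1, -0.37 for Muc5ac, -0.10 for Sftpc, -0.31 for Hopx, -0.24 for Pdpn, -0.10 for Nkx2-1, 0.32 for Col1a1, 0.22 for Cdh11, 0.064 for Ccn4, 0.19 for Ank, 0.086 for Zeb1, -0.0052 for Areg, -0.067 for Foxj1 and 0.22 for Sox9. With cleaned fibroblast libraries they were -0.30 for Muc5ac, -0.19 for Hopx, -0.12 for Pdpn, 0.17 for Col1a1 and 0.036 for Sox9, and with the share from Xist 0.026 for Csf1, -0.25 for Muc5ac, -0.015 for Sftpc, -0.20 for Hopx, -0.16 for Pdpn, 0.16 for Col1a1 and 0.14 for Sox9. With the share as a covariate they were 0.094 for Ager, -0.025 for Hopx, -0.24 for Areg, -0.29 for Ereg, -0.26 for Il1r1, 0.42 for Tekt1, 0.42 for Tnfaip3 and 0.067 for Vcam1. None of these opposite values was called. The cause was not tested.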

Other observations

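Ion and water transport genes were called in both directions. Of 26 tested, 14 were higher and 7 lower in EC, where 20.9% and 22.2% of all genes were, with a median log2 fold change of 0.60. The share lower was near that of all genes. Beyond the mixture 12 were higher and 6 lower (15.7% and 10.5% of all genes). Aqp3, an aquaglyceroporin, was higher in EC by 3.40 ± 0.28, Atp1b1, a subunit of the sodium pump, by 1.20 ± 0.09 and Cftr, the chloride channel, by 1.25 ± 0.15 (edgeR adjusted p = 5.58e-09, 1.71e-09 and 7.11e-07), while Scnn1b and Scnn1g of the sodium channel ENaC were higher in TGF-β. Of 25 genes of transitional alveolar cells, 12 were higher and 9 lower in EC, with Krt18 at 0.92 and Plaur, the urokinase receptor, at 1.03. Beyond the mixture 10 were higher and 7 lower. The same shares of all genes apply to this list. Of 30 p53 targets, 6 were higher and 13 lower directly, where 20.9% and 22.2% of all genes were. Beyond the mixture 11 were higher and 5 lower (15.7% and 10.5% of all genes). Mdm2, the ligase that degrades p53, went from -0.93 (adjusted p = 4.64e-08) to -0.27 (adjusted p = 0.0518). Of 24 BMP and Id genes, 5 were higher and 14 lower, where 20.9% and 22.2% of all genes were. The share higher was near that of all genes. Beyond the mixture 5 were higher and 8 lower (15.7% and 10.5% of all genes). The BMP antagonist Grem1 went from -2.05 to -0.10 and the protease Bmp1 from -2.04 to -1.06. Of 20 receptors and SMADs, 4 were higher and 6 lower (2 and 3 beyond the mixture), where 20.9% and 22.2% of all genes (15.7% and 10.5% beyond the mixture) were, and of 23 genes of the EGF receptor family and its ligands 10 and 3 (5 and 1 beyond the mixture).

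Xist and 4 Y-linked genes gave a second view of the mixture, since CCL206 libraries of the TGF-β cultures held much Xist and little Y-linked RNA. Xist was at 142, 171, 59.3 and 54.5 CPM in the EC epithelial libraries of mice 1 to 4 and at 438, 455 and 654 CPM in the TGF-β libraries of mice 2 to 4. Against the fibroblast library of the same culture, this made a share of 45.8%, 18.6%, 5.28% and 7.21% in EC and of 24.8%, 35.8% and 38.2% in TGF-β. The difference of 13.7 points had p = 0.343 in an exact two-sided permutation test. The EC library of mouse 1 was the exception, with the highest share of all 7 libraries by Xist but 17.4% by the fibroblast reference genes. Its partner fibroblast library held 309 CPM of Xist, and the other 6 partners 756 to 1765 CPM. The summed Y-linked genes were at 119 to 123 CPM in EC and at 136, 170 and 128 CPM in TGF-β epithelial libraries, so they were not lower in TGF-β. In the fibroblast libraries they were at 38.7 to 51.8 CPM in EC and at 0.858 to 3.37 CPM in TGF-β cultures.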
